A study of Mus musculus with 4 samples.

Results

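The replication-dependent histone genes of the mouse were followed across 3 kinds of innate lymphoid cell. They were taken as all genes whose GRCm38 symbol starts with Hist1h, Hist2h, Hist3h or Hist4h and that are listed in the count tables of all libraries, which gave 67 members among 30731 shared genes. The members comprise 6 genes of the linker histone H1, 18 of H2A, 18 of H2B, 12 of H3 and 13 of H4. By cluster, 54 lie in Hist1 on chromosome 13, 10 in Hist2 on chromosome 3, 2 in Hist3 on chromosome 11, and Hist4h4 lies alone on chromosome 6. MNK3 is a cell line with ILC3-like features. It is labelled wild type, was derived from NIH-Swiss fetal thymus at day 15 and is kept in IL-7 and IL-15 at 10 ng/ml, and it has 2 libraries. ILC2 were wild-type group 2 cells from the bone marrow of pooled C57BL/6 mice of 8 to 12 weeks, grown out with IL-25, IL-33, IL-7 and IL-2 at 10 ng/ml, with 1 library. NK cells were wild-type group 1 cells from the spleen of pooled C57BL/6 mice of 8 to 12 weeks, with no culture stated and 1 library. Tissue and culture differ along with the cell type. MNK3 differs further in mouse strain and in the gene annotation over which reads were counted. These differences cannot be told apart.

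Core histones H2A, H2B, H3 and H4 form the protein octamer on which DNA is wound, and H1 binds the linker DNA between octamers. The clustered genes are switched on together as cells enter S phase, when new chromatin has to be packed. Their mRNAs normally have no introns, although some annotated transcripts of members do. They normally end in a stem-loop in place of a poly(A) tail, which the protein SLBP binds and which ties the message to DNA synthesis. Some members, Hist1h1c among them, are known to make polyadenylated messages as well in cells that have left the cycle. The libraries were made from total RNA with a stranded kit that does not select for poly(A), so both kinds of message could be read.

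The stem-loop is what the members share at the RNA level, and its letters separate H4 from the other types. It was found in annotated transcripts of 46 of the 67 members, as 8 forms of 16 bases. For that count the search was not limited to transcript ends. A narrower search covered only the last 400 bases of a transcript. In it, 43 of 21901 protein-coding genes (0.196%) held the pattern, and 32 of those 43 were members. Near transcript ends the pattern is thus rare elsewhere, and other stretches of non-member transcripts were not searched. The commonest form was present in 26 members. All 34 stem-loops of H1, H2A, H2B and H3 members began with GGCTC, whereas none of the 12 found in H4 members did. No match says only that these letters are not in a member's annotated transcripts. The following examples are shown because they belong to members on which the comparisons turn, from GENCODE M21 transcripts (GRCm38), 5′ to 3′ with the stem-loop in capitals and up to 5 flanking bases in lower case.
Hist1h1c: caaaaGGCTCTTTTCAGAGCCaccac
Hist1h2bb: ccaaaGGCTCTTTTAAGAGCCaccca
Hist1h3b: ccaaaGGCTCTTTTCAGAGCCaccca
Hist1h4d: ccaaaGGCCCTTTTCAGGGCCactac
Hist1h4b: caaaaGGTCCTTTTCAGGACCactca
Hist4h4: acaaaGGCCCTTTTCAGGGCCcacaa

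The promoters differ by type in a similar way. RefSeq (GRCm38.p6) gave a promoter for 61 members, and its 250 bases before the start were searched on both strands for 4 motifs, none of which contains another. The CCAAT box (CCAAT) was present in all 5 H1, all 18 H2A and all 16 H2B promoters and in 8 of 10 H3 promoters, but in 3 of 12 H4 promoters (25.0%). Among all 32851 promoters of the table, 33.8% held it. The octamer ATTTGCAT, long known from H2B promoters, was present in 7 of 18 H2A and 6 of 16 H2B promoters. It was in none of the other types, and in 1.60% of all promoters. Windows of head-to-head H2A and H2B genes can overlap, so the same octamer can count for both, as for Hist1h2ae and Hist1h2bg. The same holds for the CCAAT box, so H2A and H2B matches are not all separate. The H1 box AAACACA was present in 4 of 5 H1 promoters, against 6.25% of all promoters, and Hist1h1a was the H1 member without it. The TATA box TATAAA was present in 45.9% of member promoters, against 12.4% of all. A match is a description of the letters only. The 6 promoters below belong to the members with the most reads or the clearest differences, and motif matches are in capitals on either strand. They lie at chr13:23763418-23763667 (plus strand) for Hist1h1a, chr13:23738557-23738806 (plus strand) for Hist1h1c, chr13:23746484-23746733 (plus strand) for Hist1h2bb, chr13:23752095-23752344 (plus strand) for Hist1h3b, chr13:23581318-23581567 (plus strand) for Hist1h4d and chr6:136804432-136804681 (minus strand) for Hist4h4. Hist4h4 holds none of the 4 motifs in this window.
Hist1h1a: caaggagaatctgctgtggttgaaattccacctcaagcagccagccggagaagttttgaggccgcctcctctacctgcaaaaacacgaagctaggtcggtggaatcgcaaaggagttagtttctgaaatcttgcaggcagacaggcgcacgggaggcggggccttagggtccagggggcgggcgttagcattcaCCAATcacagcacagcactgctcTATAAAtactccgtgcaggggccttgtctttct
Hist1h1c: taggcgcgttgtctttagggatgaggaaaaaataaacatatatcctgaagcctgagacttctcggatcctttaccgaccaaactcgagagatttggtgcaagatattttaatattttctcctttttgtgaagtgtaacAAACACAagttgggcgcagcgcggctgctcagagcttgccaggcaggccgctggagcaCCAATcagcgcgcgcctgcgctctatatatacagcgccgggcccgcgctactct
Hist1h2bb: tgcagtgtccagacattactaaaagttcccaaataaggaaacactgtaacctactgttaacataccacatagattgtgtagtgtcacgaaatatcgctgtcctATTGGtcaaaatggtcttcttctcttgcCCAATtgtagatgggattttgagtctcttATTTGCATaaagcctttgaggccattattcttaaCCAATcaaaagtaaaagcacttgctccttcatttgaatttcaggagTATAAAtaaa
Hist1h3b: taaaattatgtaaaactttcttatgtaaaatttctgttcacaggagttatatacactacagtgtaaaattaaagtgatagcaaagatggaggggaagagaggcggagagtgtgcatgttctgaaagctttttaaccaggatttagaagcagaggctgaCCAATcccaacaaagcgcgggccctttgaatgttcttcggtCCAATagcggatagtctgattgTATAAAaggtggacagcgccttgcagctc
Hist1h4d: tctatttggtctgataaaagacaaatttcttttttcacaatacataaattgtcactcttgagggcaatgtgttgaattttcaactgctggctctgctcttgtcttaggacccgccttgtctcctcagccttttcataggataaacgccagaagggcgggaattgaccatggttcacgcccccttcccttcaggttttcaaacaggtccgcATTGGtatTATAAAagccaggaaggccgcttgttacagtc
Hist4h4: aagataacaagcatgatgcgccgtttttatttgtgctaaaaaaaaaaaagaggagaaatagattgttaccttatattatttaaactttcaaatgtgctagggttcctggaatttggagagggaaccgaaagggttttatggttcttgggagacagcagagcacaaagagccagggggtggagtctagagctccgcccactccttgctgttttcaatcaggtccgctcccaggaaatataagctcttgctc

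**Figure D1:**
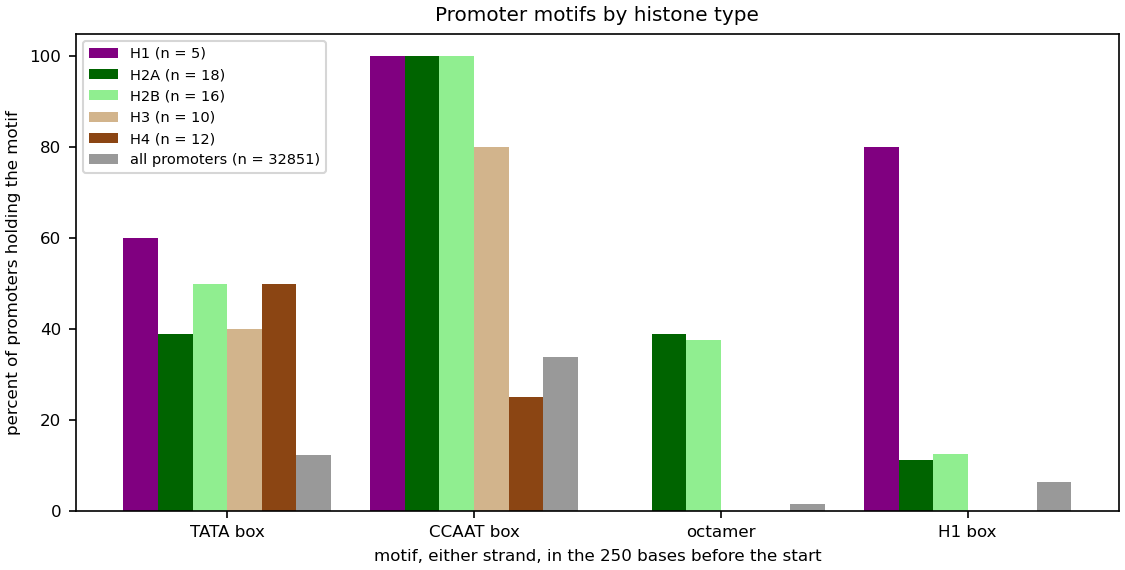
Percent of promoters (y axis) that hold each of 4 motifs (x axis) on either strand within 250 bases before the start, for each histone type and for all promoters of the table. The octamer appears in H2A and H2B only among the histone types, and the CCAAT box reaches 100% in H1, H2A and H2B but 25.0% in H4.

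Reads in shared genes ranged from 4637812 in NK to 25617762 in MNK3 replicate 1. The labels speak of technical replicates and do not say whether the MNK3 libraries came from separate cultures. Every p-value here thus rests on a spread that may be purely technical. MNK3 replicate 1 stood apart. Entries that name no gene held 76.5% of its reads, against 26.6% in MNK3 replicate 2, 25.9% in ILC2 and 49.3% in NK. The 1134 olfactory receptor genes, which lymphocytes do not need, served as a floor. Their median was 1.68 CPM (reads scaled to one common library total) in MNK3 replicate 1, 0 in MNK3 replicate 2, 0 in ILC2 and 0.216 in NK. Their 95th percentile was 5.41, 0.198, 0.323 and 0.862 CPM in the same order, and 61, 63, 57 and 54 of the 67 members lay above it. Summed cell type markers followed the labels, with exceptions among single genes. The 7 NK markers summed to 86.5 and 69.4 CPM in MNK3, 18.7 CPM in ILC2 and 7924 CPM in NK. The 6 ILC2 markers summed to 147 and 97.5 CPM in MNK3, 5494 CPM in ILC2 and 222 CPM in NK, but Klrg1 had 2.73 and 1.98 CPM in MNK3, 20.8 CPM in ILC2 and 89.7 CPM in NK, and Il17rb had 25.8 and 2.504 CPM in MNK3, 3.98 CPM in ILC2 and 3.88 CPM in NK. The 6 group 3 markers summed to 1684 and 2465 CPM in MNK3, 217 CPM in ILC2 and 93.1 CPM in NK, with Il17a at 1.13 and 0.329 CPM in MNK3. Markers of other cells stayed low. The 6 T cell markers summed to 102 and 5.14 CPM in MNK3, 12.2 CPM in ILC2 and 34.5 CPM in NK. The 5 B cell markers summed to 33.7 and 1.58 CPM in MNK3, 40.1 CPM in ILC2 and 5.17 CPM in NK, and the 5 erythroid markers to 22.1 and 3.89 CPM in MNK3, 2.26 CPM in ILC2 and 5.17 CPM in NK. The part of such cells in the histone values was not tested. The 6 myeloid markers summed to 32.2 and 1.78 CPM in MNK3, 6.02 CPM in ILC2 and 240.2 CPM in NK, of which Itgam, also carried by NK cells, made 233 CPM.

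How well a read can be placed differed between members. Of the 67 members, 35 had fewer than 50% of their 38-base windows unique among all annotated transcripts, and 15 had fewer than 15%, so reads of these near-identical copies are uncertain by gene. The H1 members are mostly unique, so sums and shares by type can be touched as well, and among members with at least 50% unique windows the log2 ratio of summed CPM was 1.17 for MNK3 over NK, against 1.48 over all members. Another annotated gene overlapped 24 members. For 20 of them, 17 of these being H2A genes, an overlapping gene was listed in the NK and ILC2 tables only, and the strand setting of the counting is not given in the sources used here. All libraries list 0 reads for Hist2h2aa1, Hist2h2aa2, Hist2h2bb and Hist2h3b, each of which is wholly covered by other annotated genes. The other 63 members passed the filter on low counts.

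MNK3 and the expanded ILC2 had several times the core histone reads of NK cells, while their linker histone sums differed less. Sums of reads carry no test here, since ILC2 and NK have 1 library each. Summed over all members, histone reads made 6722 and 9514 CPM in MNK3, 7490 CPM in ILC2 and 2908 CPM in NK. The core types together made 4076 and 5709 CPM in MNK3, 3843 CPM in ILC2 and 762 CPM in NK, which is 6.42-fold more in MNK3 than in NK and 5.04-fold more in ILC2 than in NK. H1 made 2646 and 3805 CPM in MNK3, 3647 CPM in ILC2 and 2146 CPM in NK, which is 1.503-fold more in MNK3 than in NK and 1.70-fold more in ILC2 than in NK. The core sum over the H1 sum was therefore 1.54 and 1.5002 in MNK3, 1.05 in ILC2 and 0.355 in NK. In these bulk samples, fewer cycling cells and less histone RNA per cell cannot be told apart.

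By type, H1 took 39.4% of histone reads in MNK3 replicate 1 (95% exact binomial interval 39.1 to 39.6), 40.0% in MNK3 replicate 2 (39.7 to 40.2), 48.7% in ILC2 (48.3 to 49.1) and 73.8% in NK (73.0 to 74.5). These intervals cover counting error only, since reads copied by PCR without molecular identifiers are not independent molecules. H4 took 21.5% and 21.5% in MNK3, 15.6% in ILC2 and 7.68% in NK. H2A took 13.6% and 13.95% in MNK3, 12.6% in ILC2 and 7.10% in NK. H2B took 14.3% and 13.5% in MNK3, 12.3% in ILC2 and 7.64% in NK. H3 had the smallest share, 11.2% and 11.1% in MNK3, 10.9% in ILC2 and 3.79% in NK. The MNK3 libraries had a mean H1 share of 39.7% ± 0.447 (SD, n = 2). Neither that SD nor the counting intervals measure spread between separate samples, so the gaps to ILC2 and to NK, with 1 library each, have no replicate check. Counted per kb of annotated exon, the H1 share was 22.2% and 22.4% in MNK3, 26.1% in ILC2 and 52.0% in NK. Its order among the cells stayed the same. Annotated lengths past the stem-loop are uneven between members. Within the octamer, H2A over H2B was 0.956 and 1.04 in MNK3, 1.02 in ILC2 and 0.930 in NK on the read scale.

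**Figure D2:**
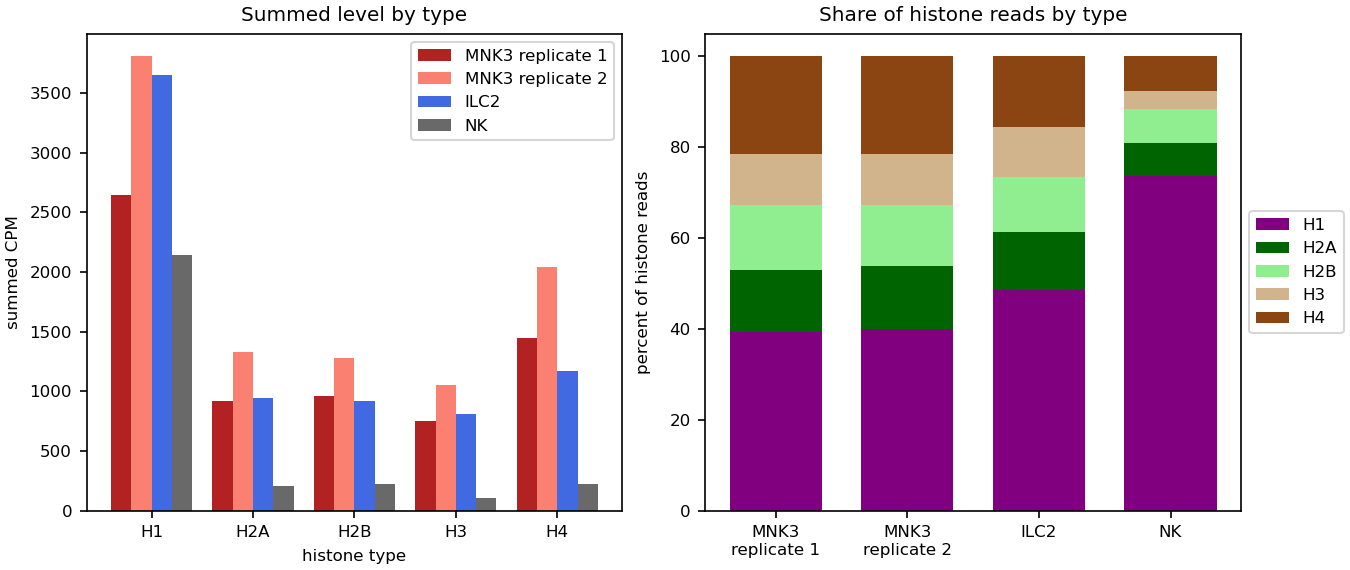
Left, summed CPM of each histone type (bars) in both MNK3 libraries, ILC2 and NK. Right, the percent of histone reads that each type took in each library, where H1 takes 39.4% and 40.0% in the MNK3 bars, 48.7% in ILC2 and 73.8% in NK.

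The linker genes split into a pair that differed widely between the cells and a trio whose sum differed little. Within the trio, Hist1h1d was still 2.99-fold higher in ILC2 than in NK and 2.00-fold higher in MNK3 than in NK. Hist1h1a, which encodes H1.1, had 365.1 and 529 CPM in MNK3, 177 CPM in ILC2 and 42.5 CPM in NK. Hist1h1b, which encodes H1.5, had 319 and 454 CPM in MNK3, 480 CPM in ILC2 and 44.0 CPM in NK. Both genes were thus lowest in NK, and only Hist1h1a lay above ILC2 in both MNK3 libraries. Their sum was 9.64-fold higher in MNK3 than in NK, 7.59-fold higher in ILC2 than in NK and 1.27-fold higher in MNK3 than in ILC2. Hist1h1c, which encodes H1.2, had 706 and 1018 CPM in MNK3, 1106 CPM in ILC2 and 1058 CPM in NK. It had the most reads of all members in NK and in ILC2, and in NK it lay above both MNK3 libraries. Hist1h1e, which encodes H1.4, had 737 and 1082 CPM in MNK3, 961 CPM in ILC2 and 693 CPM in NK. Hist1h1d, which encodes H1.3, had 513 and 721 CPM in MNK3, 922 CPM in ILC2 and 308 CPM in NK. On the scaled log2 ratio, MNK3 over NK was -0.26 for Hist1h1c but 0.23 without MNK3 replicate 1, and 0.43 for Hist1h1e but -0.33 without MNK3 replicate 2. The trio summed to 1956 and 2822 CPM in MNK3, 2989 CPM in ILC2 and 2059 CPM in NK, so the MNK3 libraries lay on either side of NK and both under ILC2. The testis gene Hist1h1t had 4.997 and 0.461 CPM in MNK3, 1.94 CPM in ILC2 and 0.431 CPM in NK, and its higher MNK3 value lies under the olfactory receptor 95th percentile of that library.

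The makeup of the H1 pool followed from this. Hist1h1a gave 13.8% and 13.9% of H1 reads in MNK3, 4.85% in ILC2 and 1.98% in NK. Hist1h1b gave 12.1% and 11.9% in MNK3, 13.1% in ILC2 and 2.05% in NK. Hist1h1c gave 26.7% and 26.8% in MNK3, 30.3% in ILC2 and 49.3% in NK. MNK3 and ILC2 therefore had like shares of Hist1h1b but not of Hist1h1a. Per kb of exon, Hist1h1a was the highest H1 member in both MNK3 libraries, at 493 and 714 CPM per kb, whereas Hist1h1c was the highest in ILC2, at 709 CPM per kb, and in NK, at 678 CPM per kb. The exon length of Hist1h1d in the annotation is 7425 bases, the longest among the H1 genes, which lowers its level per kb. Those of Hist1h1c and Hist1h1e are 1560 and 1930 bases, of which 840 and 1153 lie past the stem-loop. Hist1h1a has 741 annotated bases and no annotated stem-loop, so its top place per kb rests on uneven annotation. In CPM it lay below Hist1h1c, Hist1h1d and Hist1h1e in both MNK3 libraries.

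**Figure D3:**
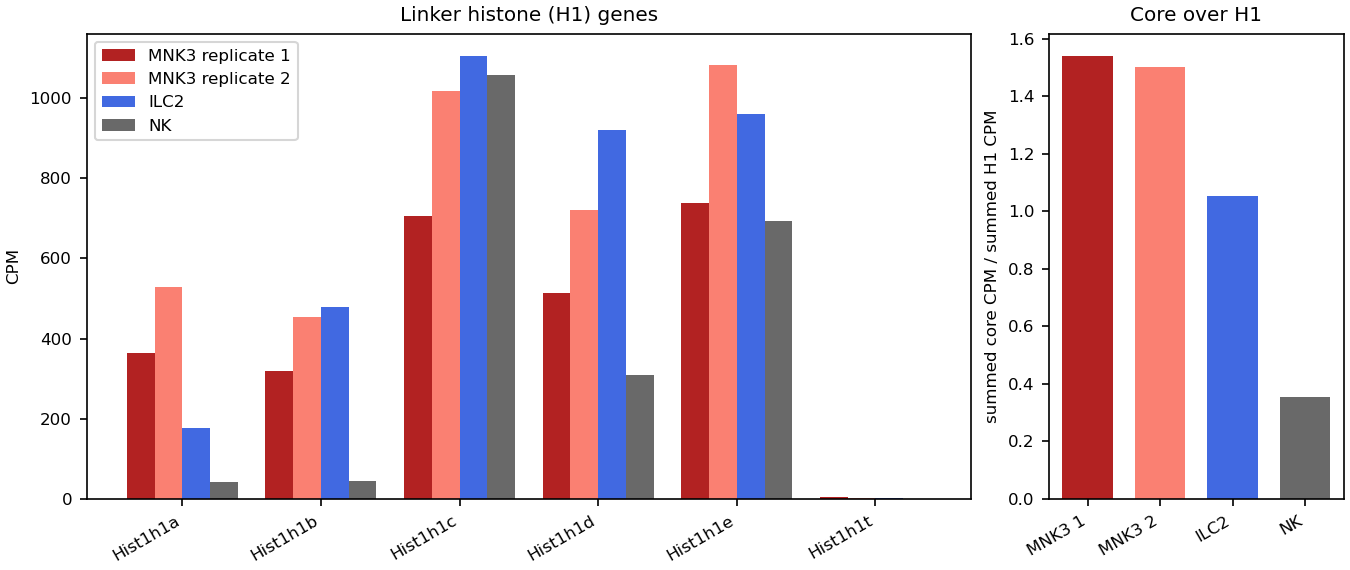
Left, CPM of the 6 linker histone genes (bars) in both MNK3 libraries, ILC2 and NK. Hist1h1a and Hist1h1b are below 50 CPM in NK, while Hist1h1c reaches 1058 CPM there. Right, summed core histone CPM over summed H1 CPM per library, from 1.54 in MNK3 replicate 1 to 0.355 in NK.

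Of the 18 H2A genes, 15 lay 2-fold or more higher in MNK3 than in NK by size and 1 lay 2-fold or more lower, where 29.0% and 5.99% of all shared genes did. Hist1h2ak, an H2A gene of the Hist1 cluster, had 232 and 351 CPM in MNK3, 174 CPM in ILC2 and 41.2 CPM in NK. It was the highest H2A member per kb in every library, on an annotated length of 393 bases against 2482 for Hist1h2ac. Hist2h2ac, from the smaller Hist2 cluster, had 145 and 213 CPM in MNK3, 175 CPM in ILC2 and 28.5 CPM in NK. Hist1h2ac had 110 and 162 CPM in MNK3, 121 CPM in ILC2 and 50.7 CPM in NK. All 3 were lowest in NK, and for the last pair ILC2 lay between the MNK3 libraries. Hist1h2ab had 61.2 and 98.3 CPM in MNK3, 110.02 CPM in ILC2 and 9.06 CPM in NK, and thus lay lower in both MNK3 libraries than in ILC2. Hist2h2ab had 19.0 and 25.2 CPM in MNK3, 9.03 CPM in ILC2 and 1.29 CPM in NK. The gene that ran the other way was Hist3h2a, with 7.69 and 1.52 CPM in MNK3, 2.58 CPM in ILC2 and 13.2 CPM in NK. It was the highest in NK, and the only member that lay 2-fold or more lower in MNK3 than in NK and in ILC2 than in NK. Other annotated genes cover 33.0% of the exons of Hist3h2a, all of it by Trim17 on the same strand, which every library lists. The antisense gene Gm44313, listed in the NK and ILC2 tables only, covers 6.43% of them.

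Among the H2B genes, Hist1h2bb had 154 and 231 CPM in MNK3, 192 CPM in ILC2 and 20.5 CPM in NK. Hist1h2bc, which can also yield polyadenylated message, had 105 and 159 CPM in MNK3, 127 CPM in ILC2 and 35.8 CPM in NK. Hist1h2bg had 112 and 159 CPM in MNK3, 124 CPM in ILC2 and 52.0 CPM in NK. For each of them NK was lowest and ILC2 lay between the MNK3 libraries. Hist1h2bj had 39.0 and 51.1 CPM in MNK3, 71.2 CPM in ILC2 and 6.47 CPM in NK, which made it the member with the lowest MNK3 to ILC2 ratio. Hist2h2be, an H2B gene with a long annotated transcript and no annotated stem-loop, had 20.6 and 7.25 CPM in MNK3, 6.56 CPM in ILC2 and 8.41 CPM in NK. It did not follow the other H2B genes, since NK lay between the MNK3 libraries. Hist3h2ba had 11.5 and 10.2 CPM in MNK3, 7.85 CPM in ILC2 and 3.88 CPM in NK. The testis pair was low in all cells. Hist1h2aa had 3.20 and 3.43 CPM in MNK3, 0.323 CPM in ILC2 and 0.216 CPM in NK, and Hist1h2ba had 8.43 and 9.75 CPM in MNK3, 0.323 CPM in ILC2 and 0.216 CPM in NK.

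The H3 genes were lowest in NK throughout, apart from Hist2h3c1, which had no reads in ILC2 or NK, and Hist2h3b, which had none anywhere. Hist1h3b had 168 and 256 CPM in MNK3, 216 CPM in ILC2 and 21.1 CPM in NK. Hist1h3e had 141 and 210 CPM in MNK3, 153 CPM in ILC2 and 29.3 CPM in NK. Hist1h3d had 104 and 137 CPM in MNK3, 95.4 CPM in ILC2 and 12.9 CPM in NK. NK was lowest for each, and only Hist1h3d lay above ILC2 in both MNK3 libraries. Hist1h3g had 42.4 and 54.0 CPM in MNK3, 68.5 CPM in ILC2 and 4.31 CPM in NK, and so was lower in both MNK3 libraries than in ILC2. Over the H3 genes the sum was 8.22-fold higher in MNK3 than in NK and 7.38-fold higher in ILC2 than in NK.

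Among members above 100 CPM in both MNK3 libraries, Hist4h4 had the largest ratio of MNK3 over ILC2. Hist4h4, the single H4 gene on chromosome 6 (GRCm38 136801553 to 136804415, minus strand), had 258 and 357 CPM in MNK3, 66.5 CPM in ILC2 and 14.4 CPM in NK. That is 4.62-fold higher in MNK3 than in ILC2 and 21.3-fold higher than in NK. It gave 17.8% and 17.4% of H4 reads in MNK3, 5.69% in ILC2 and 6.47% in NK. No other annotated gene overlaps it, and 86.1% of its windows are unique. Hist1h4d had 263 and 384 CPM in MNK3, 336 CPM in ILC2 and 84.1 CPM in NK, with 18.2% and 18.8% of H4 reads in MNK3, 28.8% in ILC2 and 37.6% in NK. Hist2h4 had 177 and 242 CPM in MNK3, 125 CPM in ILC2 and 22.2 CPM in NK. Hist4h4 and Hist2h4 thus lay above ILC2 in both MNK3 libraries, and Hist1h4d did not. All 13 H4 members were 2-fold or more higher in MNK3 than in NK (29.0% of shared genes) and in ILC2 than in NK (12.5%).

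**Figure D4:**
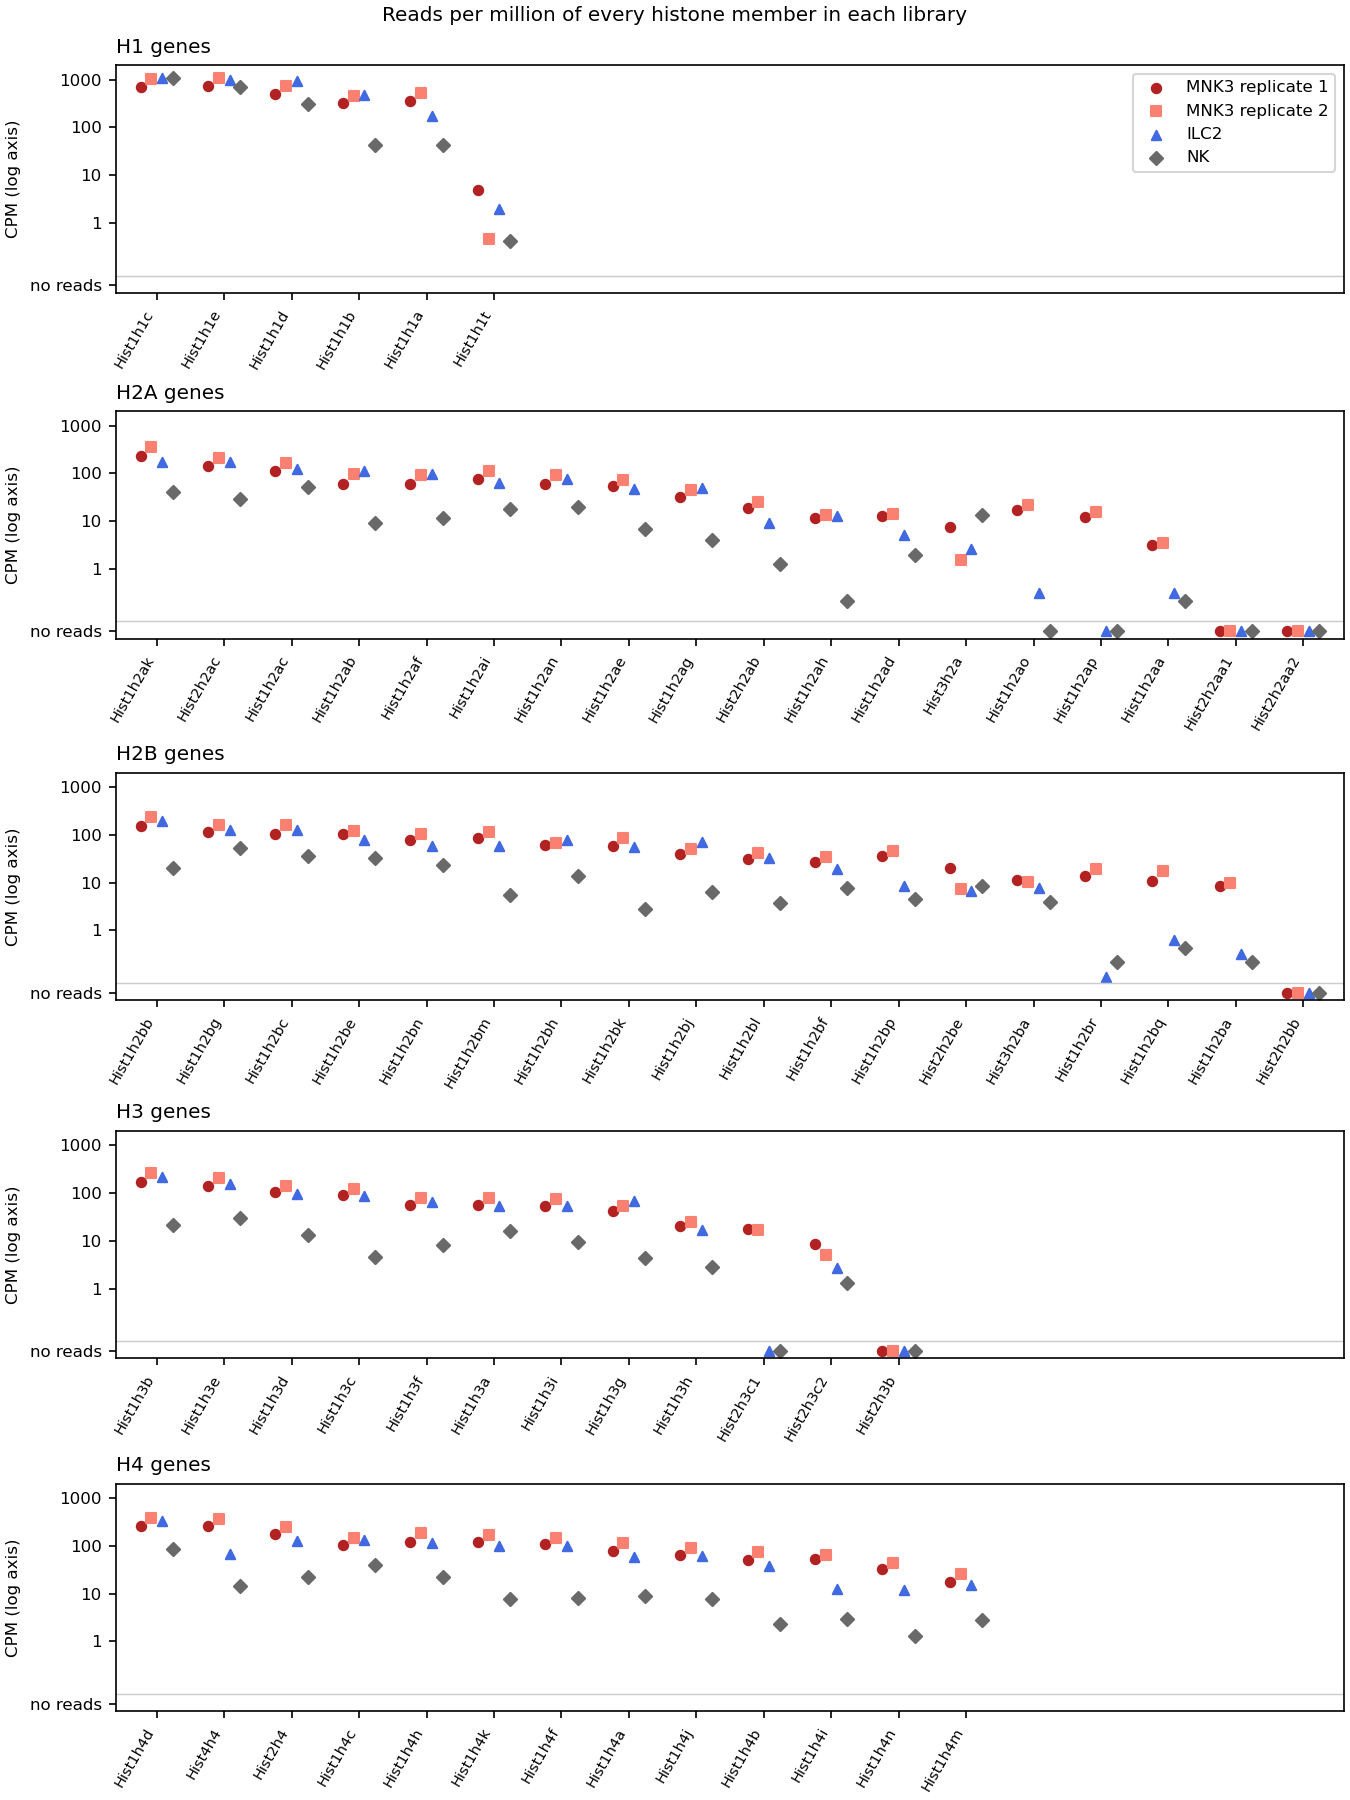
CPM (log axis) of every member by histone type in both MNK3 libraries, ILC2 and NK, ordered within a type by mean level over the groups. Points under the grey line had no reads. NK is the lowest of the points for most core genes, and Hist1h1c and Hist3h2a are the members in which NK lies above both MNK3 libraries.

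The comparison of the group 3 line with group 1 cells covered all members, on a scale corrected for library composition by trimmed means (TMM) with 0.5 CPM added. The log2 ratio of MNK3 over NK had a median of 2.81 over the 67 members, against 0.49 over all shared genes. By size, 59 of 67 members were 2-fold or more higher, against 29.0% of all shared genes, and 1 was 2-fold or more lower, against 5.99%. Both MNK3 libraries lay above NK for 60 members, against 30.3% of shared genes, and below it for 2, against 12.2%. The type medians were 1.26 for H1, 2.69 for H2A, 2.45 for H2B, 2.88 for H3 and 3.42 for H4. Among H4 genes the ratios ran from 1.68 to 4.47, so every H4 member exceeded the H1 median. The full range was -0.26 to 3.41 for H1, -1.67 to 5.27 for H2A and 0 to 4.57 for H2B. For H3 it was 0 to 5.07, and 0 marks members with no reads. The 5.07 belongs to Hist2h3c1, whose 0 in NK cannot be read as absence, as given below. Under the other scalings the median of all tested genes shifted by -0.30 to 0.32 from its TMM value, so ratios of that size rest on the scaling.

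No member passed the test in this comparison by limma voom at an adjusted p under 0.05, where 0.530% of tested genes did. The count at an unadjusted p under 0.05 was 14 of 63 members, against 3.49% of genes, and all 14 lay higher in MNK3. Limma trend, a second fit, called 22 members, all higher, against 3.16% of genes. The smallest adjusted p by limma voom was 0.161, for Hist1h1a, whose log2 fold was 3.41 (SE 1.07). At an adjusted p of 0.243 by limma voom followed Hist4h4 at 4.42 (SE 1.47) and Hist1h1b at 3.15 (SE 1.05), while Hist1h1c stood at -0.28 (SE 1.32) with an unadjusted p of 0.830. The fit rests on 1 residual degree of freedom from the MNK3 pair, whose members differed by a median factor of 1.37 in raw CPM, and it assumes that the lone NK library varies as that pair did.

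Against ILC2 the members as a whole did not separate. The log2 ratio of MNK3 over ILC2 had a median of 0.04 over the 67 members, against 0.56 over all shared genes. It was -0.14 with median-of-ratios factors, 0.46 without MNK3 replicate 1 and -0.50 without MNK3 replicate 2, so its direction rested on the scaling and on the library. By size, 12 members were 2-fold or more higher, against 33.1% of shared genes, and 0 were 2-fold or more lower, against 7.04%. Without MNK3 replicate 2 the number lower was 17. Both MNK3 libraries lay above ILC2 for 37 members, against 37.8% of shared genes, and below it for 9, against 10.8%. Those 9 were Hist1h1b, Hist1h1c, Hist1h1d, Hist1h2ab, Hist1h2af, Hist1h2ag, Hist1h2bh, Hist1h2bj and Hist1h3g, listed after their values were seen. No member passed by limma voom, where 0.340% of genes did. The count at an unadjusted p under 0.05 was 0 of 63, against 3.58% of genes, and limma trend called 0 members, against 1.60% of genes. By limma voom, Hist4h4 stood at 1.88 on the log2 scale (SE 1.01) with an unadjusted p of 0.0612, and Hist1h1a at 1.01 (SE 1.13) with an unadjusted p of 0.369. The direction of Hist4h4 and Hist1h1a held under every scaling and without either MNK3 library, whereas that of Hist1h2ak, Hist2h4 and Hist1h3d turned without MNK3 replicate 2 (-0.35, -0.27 and -0.64), and that of Hist1h3d also with median-of-ratios factors (-0.20).

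The 12 members at 2-fold or more over ILC2 were of a few kinds, and are named in full after their values were seen. Hist1h1a and Hist4h4 are described above, and the log2 ratio of Hist1h1a, 1.03, fell short of 2-fold at 0.28 without MNK3 replicate 2 and at 0.82 with median-of-ratios factors. Hist1h4i had 54.2 and 64.9 CPM in MNK3, against 12.8 CPM in ILC2, and Hist1h4n had 33.2 and 44.7 CPM in MNK3, against 11.7 CPM in ILC2. Hist1h2bp had 36.0 and 46.5 CPM in MNK3, against 8.60 CPM in ILC2. The testis pair Hist1h2aa and Hist1h2ba made up another 2, but neither lay above the olfactory receptor 95th percentile in ILC2 or NK, nor did Hist1h2aa in MNK3 replicate 1. The remaining 5 were nearly unread in ILC2 and NK. Hist1h2ap had 12.1 and 15.2 CPM in MNK3 and no reads in ILC2 or NK. Against a floor of 3 reads per library it was at least 37.6-fold higher in MNK3 replicate 1 and at least 47.2-fold higher in replicate 2 than in ILC2. Hist1h2ao had 17.1 and 21.5 CPM in MNK3, 0.323 CPM in ILC2 and no reads in NK. Hist1h2bq had 10.8 and 17.5 CPM in MNK3, 0.645 CPM in ILC2 and 0.431 CPM in NK, and Hist1h2br had 13.5 and 19.4 CPM in MNK3, 0.108 CPM in ILC2 and 0.216 CPM in NK. Between 2.12% and 10.9% of the windows of these 4 genes are unique, so their reads can fit sister copies. Hist2h3c1 had 17.995 and 16.7 CPM in MNK3 and no reads in ILC2 or NK. Its exons lie wholly inside a longer gene on the same strand that is listed in the NK and ILC2 tables only. A read there fits both genes, so its 0 in ILC2 and NK cannot be read as absent message, and no fold is given. It is still counted among the 12 members here and among those 2-fold or more higher than NK. Strain, counting gene set and cell type cannot be told apart for the other 4.

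The comparison of the expanded ILC2 with NK shares its single NK library with that of MNK3, so the values of both are not independent. The log2 ratio of ILC2 over NK had a median of 2.38 over the 67 members, against 0 over all shared genes. By size, 52 members were 2-fold or more higher, against 12.5% of shared genes, and 1, Hist3h2a, was lower, against 13.1%. The type medians were 1.78 for H1, 2.18 for H2A, 1.58 for H2B, 2.74 for H3 and 2.81 for H4. No member passed by limma voom, where 0 of 25283 genes did (0%). The count at an unadjusted p under 0.05 was 16 of 63 members, against 2.33% of genes, and limma trend called 15 members, against 1.81% of genes. All 16 and all 15 lay higher in ILC2. The lowest adjusted p by limma voom was 0.773, for Hist1h1b at a log2 ratio of 3.79 (SE 1.22). Hist1h1c stood at 0.41 (SE 1.52) with an unadjusted p of 0.788 by limma voom. With 1 library on each side, the spread in this comparison is borrowed from the MNK3 pair.

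**Figure D5:**
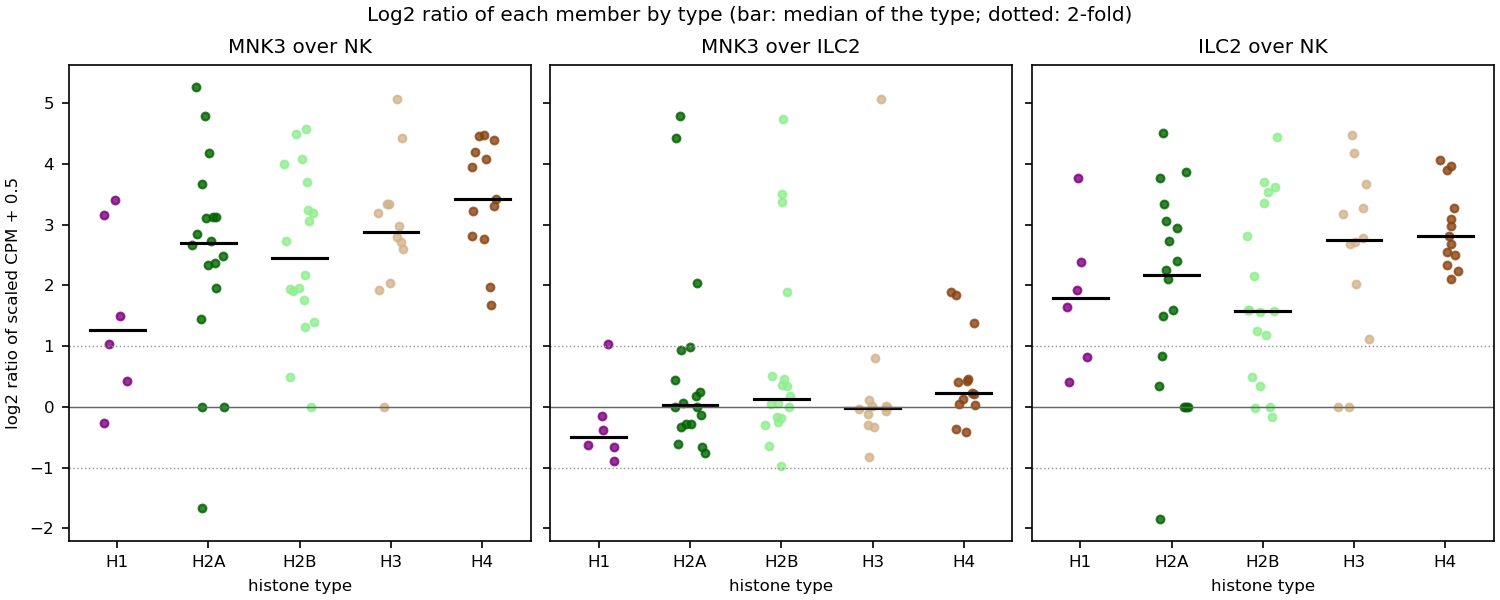
Log2 ratio of TMM-scaled CPM + 0.5 for each member (points) by histone type, for MNK3 over NK, MNK3 over ILC2 and ILC2 over NK. Bars mark the type medians, which lie between 1.26 and 3.42 for MNK3 over NK and between -0.50 and 0.23 for MNK3 over ILC2.

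The order of the members was alike in all libraries. Across the 61 core members, log2 levels correlated with a Spearman rho of 0.99 between the MNK3 libraries, 0.93 between either MNK3 library and ILC2, 0.85 and 0.83 between the MNK3 libraries and NK, and 0.87 between ILC2 and NK. These are correlations across genes, which are not independent replicates, share transcript length and sequence copies, and carry no test. Of the 63 members with reads in both MNK3 libraries, 57 were higher in replicate 2. The 6 higher in replicate 1 were Hist1h1t, Hist2h2be, Hist2h3c1, Hist2h3c2, Hist3h2a and Hist3h2ba, of which 5 lie outside the Hist1 cluster. The olfactory receptor median was also higher in replicate 1, and its part in these 6 values was not tested.

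By cluster, Hist1 held 90.1% and 90.8% of histone reads in MNK3 (95% exact binomial intervals 90.0 to 90.3 and 90.6 to 90.9), 94.7% in ILC2 (94.6 to 94.9) and 96.8% in NK (96.5 to 97.1). Hist2 held 5.77% and 5.35% in MNK3, 4.25% in ILC2 and 2.12% in NK. The Hist4 share, which is Hist4h4 alone, was 3.83% and 3.75% in MNK3, 0.887% in ILC2 and 0.497% in NK. The Hist1 share was thus lowest in MNK3, at a mean of 90.4% ± 0.469 (SD, n = 2), again with no replicate check for ILC2 and NK. Per kb of exon the Hist1 share was 93.1% and 93.4% in MNK3, 94.4% in ILC2 and 95.9% in NK, a narrower range, since Hist4h4 has 2863 bases of annotated exon.

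H2A and H2B genes often stand head to head and share a promoter region. There were 12 such pairs with starts less than 500 bases apart, and for 9 of them the same partner had more reads in every library. In the Hist1h2ak and Hist1h2bn pair, Hist1h2ak had 232 and 351 CPM in MNK3, 174 CPM in ILC2 and 41.2 CPM in NK, and Hist1h2bn had 77.5 and 106 CPM in MNK3, 57.5 CPM in ILC2 and 23.7 CPM in NK. In the Hist1h2ae and Hist1h2bg pair it was the H2B gene that had more, since Hist1h2ae had 53.4 and 72.8 CPM in MNK3, 48.2 CPM in ILC2 and 6.90 CPM in NK. Partners could also part between cells. Hist2h2ac was 6.27-fold higher in MNK3 than in NK, whereas its partner Hist2h2be was 1.66-fold higher, with NK between the MNK3 libraries.

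Some annotated transcripts run on far past the stem-loop, as a polyadenylated form would. This split was made after the values were seen. In 13 members an annotated transcript went on for more than 400 bases beyond the stem-loop, among them Hist1h1c, Hist1h1d, Hist1h1e, Hist1h2ac, Hist1h2be, Hist3h2a and Hist4h4. They held 47.0% and 46.8% of histone reads in MNK3, 53.7% in ILC2 and 80.5% in NK, which includes the reads of the H1 trio. Without H1, their 10 core members held 1205 and 1630 CPM in MNK3, 1036 CPM in ILC2 and 283 CPM in NK. The 32 core members whose transcripts end within 400 bases held 1949 and 2766 CPM in MNK3, 1983 CPM in ILC2 and 295 CPM in NK. The median log2 ratio of MNK3 over NK was 2.07 for those 10 and 3.11 for those 32, and that of ILC2 over NK was 2.22 and 2.95. The tables count reads per gene, so which form of message was read is not known.

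The other lists were chosen with earlier results in view. The list of 22 genes for histone transcription and mRNA processing summed to 2651 and 3086 CPM in MNK3, 1937 CPM in ILC2 and 1788 CPM in NK. None of the 22 passed by limma voom in any comparison. By size, 12 were 2-fold or more higher in MNK3 than in NK and 0 lower, with a median log2 ratio of 1.06, where 29.0% of all shared genes were higher and their median was 0.49. In ILC2 over NK 7 were higher, where 12.5% of shared genes were. Slbp, which binds the stem-loop, had 227 and 296 CPM in MNK3, 108 CPM in ILC2 and 131 CPM in NK. Npat, the coactivator that cyclin E and Cdk2 switch on at histone loci, had 98.1 and 119.98 CPM in MNK3, 49.3 CPM in ILC2 and 38.4 CPM in NK. Both were thus highest in MNK3, but ILC2 and NK lay close to each other. Cdk2 differed more, with 116 and 115 CPM in MNK3, 48.9 CPM in ILC2 and 6.04 CPM in NK.

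Of the 22 histone chaperone and supply genes, 9 were 2-fold or more higher in MNK3 than in NK (29.0% of all shared genes) and 10 in ILC2 than in NK (12.5% of them), and none passed by limma voom. Chaf1a, a subunit of the assembly factor CAF-1 that works at replication forks, had 224 and 292 CPM in MNK3, 108 CPM in ILC2 and 17.7 CPM in NK. Daxx, which serves the replication-independent variant H3.3, had 68.0 and 73.6 CPM in MNK3, 58.6 CPM in ILC2 and 77.4 CPM in NK. Chaf1a was lowest in NK and Daxx was not. Both were picked from the list, and Hira, also on it, had 41.3 and 36.7 CPM in MNK3, 20.2 CPM in ILC2 and 17.7 CPM in NK. Hira was thus lowest in NK as well, and no contrast between kinds of chaperone is drawn. Among 11 replacement histone genes, most of which are made outside S phase as well, 4 were 2-fold or more higher in MNK3 than in NK and 3 in ILC2 than in NK, with none passing by limma voom. The share of the first was near the 29.0% of all shared genes, and the list median of 0.23 lay under their 0.49. For ILC2 over NK, 12.5% of all shared genes were higher. H2afx, which also yields a stem-loop message in S phase, had 473 and 697 CPM in MNK3, 209.9 CPM in ILC2 and 43.6 CPM in NK. H3f3b, which encodes H3.3, had 330.2 and 479.7 CPM in MNK3, 265 CPM in ILC2 and 354 CPM in NK. H1f0, the linker histone H1.0 of cells that divide little, had 417 and 591 CPM in MNK3, 266 CPM in ILC2 and 10.997 CPM in NK, so it too was lowest in NK.

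S phase genes, the enzymes and factors of DNA replication, had a pattern of levels like that of the core histones. All 32 were measured, 30 were 2-fold or more higher in MNK3 than in NK (29.0% of all shared genes) and 26 in ILC2 than in NK (12.5%), with median log2 ratios of 2.52 and 2.13, and none passed by limma voom. Limma trend called 11 and 7 of them, against 3.16% and 1.81% of genes. They summed to 6467 and 8339 CPM in MNK3, 4523 CPM in ILC2 and 1466 CPM in NK. Core histone CPM over that sum was 0.630 and 0.685 in MNK3, 0.850 in ILC2 and 0.520 in NK. Relative to S phase genes, ILC2 had the highest core histone level and NK the lowest. In MNK3 over ILC2, 5 of the 32 were 2-fold or more higher and 0 lower, a smaller share than the 33.1% of all shared genes, and the median log2 ratio of 0.40 lay under their 0.56.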

How the data were processed

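Total RNA from 4 libraries was sequenced as pairs of 38-base reads with a stranded kit. The submitters' processing notes name STAR 2.7.8a as aligner, HTSeq as counter and mm10 (GRCm38) as genome. How strand was set in counting is not given in the sources used here. The deposited files hold the authors' whole-number read counts per gene, an unnormalized unit recorded as other because it sits in headerless tables, so a linear model on log values was used in place of a count model. The entry for reads aligned to several places was 0 in every table, so how reads that fit several gene copies were treated is not known. Entries that name no gene stayed out of library sizes.

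CPM were computed over the 30731 genes listed in every table. Tests were two-sided, by limma voom 3.58.1 in R 4.3.3 with TMM factors (trims of 30% and 5%). Benjamini-Hochberg adjustment ran over the 25283 genes past the filter on low counts. That filter asked for a CPM in any library that equals 10 reads at the median library size, and for 15 reads in total. Ratios by size used TMM-scaled CPM + 0.5, with 2-fold as the limit. Tables and intervals were made in Python 3.11.15 with pandas 2.3.3 and scipy 1.17.1. The limma voom fit was also run on simulated counts with a fixed spread. That check concerned the size of large folds, and does not show how often the test errs on these data. The alternatives were other scalings, limma trend, other pseudocounts and filters, and leaving out each MNK3 library. Members and gene lists were chosen with earlier results of these data known. Members are named if they were among the 3 highest of their type, ran against the median, had a special place or role, or were among the 5 highest or 5 lowest for MNK3 over ILC2, and others that are named were picked after their values were seen.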

Additional observations from a re-analysis of the deposited data

Results flagged for a closer look

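Of 70 histone genes of these families, 3 are listed in the ILC2 and NK tables only and stand outside the comparisons. They drew attention because they held reads although no comparison uses them. Hist1h2aj, an H2A gene, had 13 reads in ILC2. Hist1h2al, also an H2A gene, had 19 reads in ILC2 and 7 reads in NK. Hist3h2bb-ps, an H2B pseudogene, had 37 reads in ILC2 and 14 reads in NK. These counts exceed the limit of 3 reads that a count of 0 allows. No MNK3 value was analysed here for these 3 genes, so no ratio to MNK3 was formed.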

How the results depend on the processing

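Of 141 values of 21 comparison results under other settings, 109 counted as unchanged. For counts of members this meant equal or within 1.5 times. For medians, sums and MNK3 shares it meant a shift under the SD between the MNK3 libraries. For ILC2 and NK shares it meant a value inside the binomial interval. Sign was not checked, so a median could change direction and still count as unchanged. Of 63 members, those called with library totals numbered 3 for MNK3 over NK, 2 for MNK3 over ILC2 and 3 for ILC2 over NK, where 2.33%, 3.27% and 1.30% of all genes were called. Limma trend called 22 for MNK3 over NK and 15 for ILC2 over NK (3.16% and 1.81% of genes). Factors from abundant genes gave 2, lower in MNK3, for MNK3 over ILC2 (1.09% of genes). The members called with factors from abundant genes were Hist1h1c and Hist1h1d, whose mean MNK3 CPM was 0.779 and 0.669 of that in ILC2. Their spread came from the MNK3 pair alone, so these calls have no replicate check in ILC2. There were 32 members with at least 50% unique windows (chosen after seeing the data, as were the next 2 subsets). Of these, 27 were 2-fold higher for MNK3 over NK, 7 for MNK3 over ILC2 and 24 for ILC2 over NK. Of all shared genes, 29.0%, 33.1% and 12.5% were. Among the 43 members that no gene overlaps, 0 were 2-fold lower for MNK3 over NK and 0 for ILC2 over NK. Of all shared genes, 5.99% and 13.1% were. The log2 ratio of summed histone CPM without H1 was 2.68 for MNK3 over NK and 2.33 for ILC2 over NK, and without the member with most reads it was 1.96 and 1.79. For MNK3 over ILC2, median-of-ratios factors gave a summed ratio of -0.41 and 3 members 2-fold lower. Leaving out either MNK3 library gave 1 to 2 members 2-fold lower than NK and 1 to 17 lower than ILC2. The H1 share per kb was 22.3%, 26.1% and 52.0% in MNK3, ILC2 and NK, and without the top member 32.1%, 39.8% and 58.8%. The Hist1 share was 93.3%, 94.4% and 95.9% per kb, and 89.2%, 93.8% and 94.97% without the top member. The cause was not tested. With 1 library each for ILC2 and NK, spread between such samples is unknown.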
